A study of Mus musculus with 16 samples.

Results

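The RNA of 31 genes of cholesterol and fatty acid synthesis was examined in mouse CD8+ T cells given a control guide RNA or one against Tardbp. Gene coordinates are those of GENCODE M21 on GRCm38. The genes were taken by their GENCODE M21 symbols from the 55536 genes counted in 16 libraries (Control gRNA, n = 8, and Tardbp gRNA, n = 8), and they were chosen with the difference between these groups in view. That difference is therefore given for them as a description. A gene is called where the fit across all genes passes the threshold, and for these genes the call describes their size against the spread between libraries and is no independent evidence. Both groups were OT-I Tg cells on the C57BL/6J background, whose transgenic receptor recognises the ovalbumin peptide SIINFEKL. Control gRNA cells were electroporated with Cas9 and a scrambled guide RNA, and Tardbp gRNA cells with Cas9 and a guide against Tardbp, which encodes the RNA-binding protein TDP-43. All cells were then transferred into C57BL/6J recipients. The recipients of both groups were given the peptide with agonist antibodies to OX40 and 4-1BB. CD8+ cells of spleen and lymph nodes were sorted after 4 days by the labels and a little earlier by the methods. The methods describe a sort by CD8 and the CD45 markers of the transferred cells. Each library was made from a pool of electroporated cells that could hold edited and unedited cells, not from a clone. The methods give a range of ages for all mice of the study, with none for these groups.

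Cells make cholesterol from acetyl-CoA through mevalonate and squalene, and make long-chain fatty acids from the same precursor. The SREBP transcription factors, encoded by Srebf1 and Srebf2, turn on the enzymes of both routes when sterols in the endoplasmic reticulum are low. SCAP carries the SREBP precursors to the Golgi for cleavage, and INSIG proteins hold SCAP back when sterols are plentiful. T cells raise this program when they are activated and divide, since growing membranes need both kinds of lipid.

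Promoter sequence was taken from RefSeq on GRCm38.p6 (250 bases before to 50 after each start site) and was found for 25 of the 31 genes, in 32 windows. Fads1, Fdft1, Fdps, Scd1, Scd2 and Sqle had no entry. The core of the sterol regulatory element that SREBP proteins bind, searched on both strands as TCACNCCAC, was in the window of 1 of the 25 genes, Hmgcs1, and in 1.24% of all 32851 promoter windows. The CCAAT box bound by NF-Y was searched on both strands as CCAAT and was in 65.6% of the windows of these genes (20 of 25 genes), against 37.4% of all windows and 38.0% of the windows of the genes tested for expression. The GC box bound by SP1, GGGCGG on either strand, was in 24 of their 32 windows, against 60.2% of the windows of tested genes. The E-box CACGTG, a palindrome, was in 21.9% of their windows, against 9.72%. None of these 4 motifs contains another, although copies can lie side by side. A match is a run of letters and not a measured binding site.

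The following stretches are shown because they hold the Hmgcs1 element and the CCAAT boxes of a late sterol enzyme, of the fatty acid synthase gene and of Srebf2. Each starts 150 bases before the RefSeq start site, is written 5′ to 3′ on the strand of the gene and stops where an annotated exon begins, and the capitals mark the 4 motifs. Hmgcs1 (chr13:119690201-119690350, plus strand) has the sterol element at -137, GC boxes at -92 and -24 and a CCAAT box at -45, where a position is the first base of the match. Lss (chr10:76531455-76531587, plus strand) has a GC box at -127 and a CCAAT box at -62. Fasn (chr11:120824548-120824697, minus strand) has CCAAT boxes at -90, -62 and -59, of which the last 2 overlap on opposite strands. Srebf2 (chr15:82147119-82147180, plus strand) has a CCAAT box at -135.
Hmgcs1: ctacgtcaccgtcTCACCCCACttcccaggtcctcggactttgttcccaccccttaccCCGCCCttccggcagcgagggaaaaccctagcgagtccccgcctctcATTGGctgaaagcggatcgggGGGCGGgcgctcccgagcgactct
Lss: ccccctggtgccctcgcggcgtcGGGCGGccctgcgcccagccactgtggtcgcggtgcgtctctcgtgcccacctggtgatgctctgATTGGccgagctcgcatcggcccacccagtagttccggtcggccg
Fasn: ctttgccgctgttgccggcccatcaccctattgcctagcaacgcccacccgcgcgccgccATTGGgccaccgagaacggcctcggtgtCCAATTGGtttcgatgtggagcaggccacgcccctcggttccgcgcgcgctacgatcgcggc
Srebf2: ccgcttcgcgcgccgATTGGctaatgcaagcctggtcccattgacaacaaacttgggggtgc

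The libraries of Control gRNA held 73649630 to 93893357 gene counts as estimated by the authors, and those of Tardbp gRNA held 56016533 to 94801105. Tardbp itself had 192.4 ± 13.3 CPM (counts scaled to a library total after TMM normalization, SD, n = 8) in Control gRNA and 134.9 ± 11.3 in Tardbp gRNA. The deposited RNA concentration before dilution, which carries no unit, was 34.9 to 197.1 for Control libraries and 10.1 to 24.0 for Tardbp libraries, so it moved with the group, and its part in the results was not tested beyond the fits given below. The 5 CD8 T cell markers were all detected and all higher in Tardbp gRNA, and their summed level was 3065 to 3833 CPM for Control libraries against 4753 to 6077 CPM for Tardbp libraries. Of 6 B cell markers 1 was called higher (470.2 to 726.8 against 632.8 to 873.5 CPM in sum), as were 2 of 5 red cell precursor markers (0.214 to 11.2 against 6.24 to 111.8) and 1 of 5 myeloid markers (14.8 to 35.0 against 19.0 to 79.0), and none of 3 CD4 T cell markers was called (1.38 to 9.90 against 2.25 to 7.25). The part of these cells in the results was not tested. Markers of tissues known for lipid synthesis were absent or near absent, since the hepatocyte genes Alb and Apoa1 were at 0 in every library and 2 adipocyte markers summed to at most 0.438 CPM. In these bulk samples, fewer cells of a type and less RNA per cell cannot be told apart.

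All 31 genes passed the filter on low counts and all 31 had a negative log2 fold change in Tardbp gRNA against Control gRNA. At an adjusted p under 0.05 by edgeR's quasi-likelihood test, 27 were called lower, none was called higher and 4 (Fads3, Mvk, Elovl1 and Pmvk) were not called. Of all 16650 genes tested, 23.3% were called lower and 23.5% higher. In 19 of the 31 the highest Tardbp library was below the lowest Control library, which held for 10.3% of all tested genes, and 16.9% were without overlap in either direction. The median log2 fold change was -0.73 for the 31 genes and 0.05 for all tested genes. Since the genes were chosen on this contrast, nothing is read from these counts. The fold changes ranged from -2.54 for Fads2 to -0.04 for Pmvk, and the 6 called genes with the lowest values were the desaturase genes Fads2, Scd1 and Scd2, the fatty acid synthase gene Fasn and the sterol genes Sqle and Lss.

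**Figure D1:**
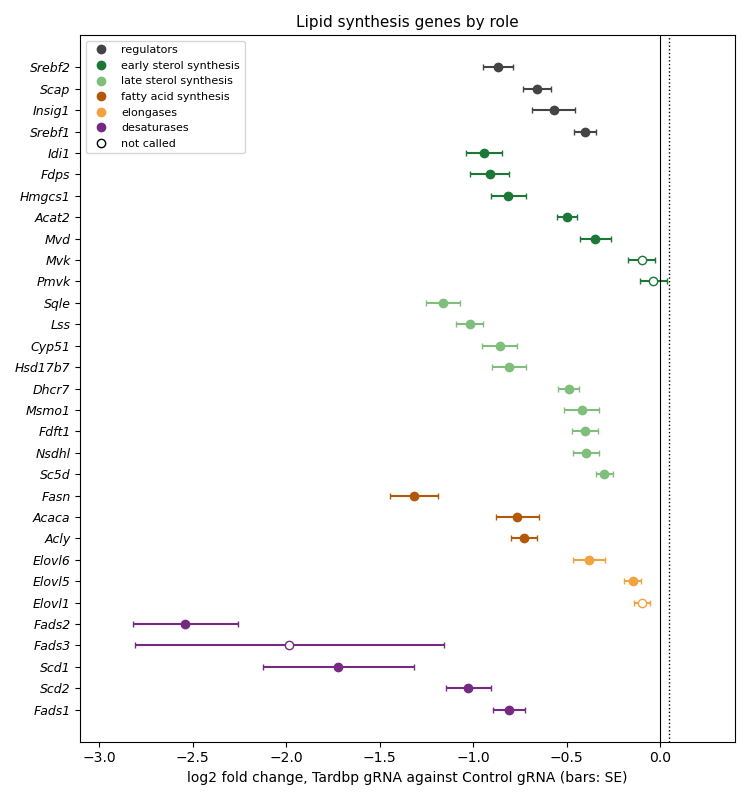
Log2 fold change of the 31 genes, Tardbp gRNA against Control gRNA (points, with SE bars, 8 libraries per group), ordered within each role. Open points were not called, and the dotted line marks the median of all tested genes, 0.05. Every point lies left of 0, from -2.54 (Fads2) to -0.04 (Pmvk).

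The 4 regulators of the program were all called lower, with a median log2 fold change of -0.61, although Insig1 was not called once the RNA concentration entered the fit. Srebf2 (ENSMUSG00000022463.8, chromosome 15, 82147181 to 82205379, plus strand), the factor that mainly drives sterol genes, had 142.3, 173.7 and 200.8 CPM (lowest, median, highest) in Control gRNA and 77.8, 97.8 and 112.9 CPM in Tardbp gRNA. The groups did not overlap, and the log2 fold change was -0.87 (SE 0.080). Scap (chromosome 9, 110333288 to 110384950), the escort of the SREBP proteins, had 122.3, 129.5 and 149.5 CPM in Control gRNA and 66.5, 85.6 and 98.0 CPM in Tardbp gRNA, again without overlap (log2 fold change -0.66, SE 0.074). Srebf1 (chromosome 11, 60199089 to 60222581), the factor that mainly drives fatty acid genes, fell less, from 105.5, 128.0 and 142.0 CPM to 88.4, 94.4 and 110.0 CPM (log2 fold change -0.40, SE 0.059). Its groups overlapped, because the lowest Control library lay below the highest Tardbp library. Insig1 (chromosome 5, 28071363 to 28078662), which retains SCAP and is itself an SREBP target, had 11.7, 17.0 and 21.0 CPM in Control gRNA and 9.19, 11.6 and 13.4 CPM in Tardbp gRNA (log2 fold change -0.57, SE 0.116). Its groups overlapped as well.

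The 7 enzymes from acetyl-CoA to farnesyl diphosphate were led by Idi1 and Fdps, while the kinases of the middle of the route were not called. Acat2, a thiolase that joins acetyl-CoA units, had 94.9, 104.9 and 117.1 CPM in Control gRNA and 65.9, 73.5 and 80.5 CPM in Tardbp gRNA, without overlap (log2 fold change -0.50, SE 0.053). Hmgcs1, which makes HMG-CoA and whose promoter is printed above, had a log2 fold change of -0.81 (SE 0.094), with a mean of 101.7 ± 16.4 CPM in Control gRNA and 57.9 ± 6.75 in Tardbp gRNA (SD, n = 8). Idi1, the isopentenyl diphosphate isomerase, fell by 0.94 on the log2 scale (SE 0.096) and Fdps, the farnesyl diphosphate synthase, by 0.91 (SE 0.106), both without overlap. Mvd, the mevalonate diphosphate decarboxylase, fell by 0.35 (SE 0.082), and its groups overlapped. The kinases Mvk and Pmvk had 10.3 ± 0.747 against 9.64 ± 0.975 CPM and 43.3 ± 3.87 against 42.2 ± 4.43 CPM, and neither was called. Their groups overlapped over most of their range.

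The 9 genes of the late sterol route that were among the 31 were all called lower, 8 of them without overlap between the groups. Other enzymes of the same stretch, taken from the pathway list, went otherwise. Ebp, a sterol isomerase, was called higher (110.7 ± 5.16 and 123.0 ± 6.68 CPM, log2 fold change 0.15, SE 0.041), and Tm7sf2, a sterol reductase, was not called (log2 fold change -0.23, SE 0.101). Sqle (chromosome 15, 59315077 to 59331192), the squalene epoxidase, had 99.3, 111.9 and 151.6 CPM in Control gRNA and 44.6, 50.6 and 60.2 CPM in Tardbp gRNA, a log2 fold change of -1.16 (SE 0.089). Lss (chromosome 10, 76531588 to 76557138), the lanosterol synthase, had 57.2, 66.1 and 76.3 CPM in Control gRNA and 28.6, 33.9 and 38.0 CPM in Tardbp gRNA, with a log2 fold change of -1.02 (SE 0.071). These 2 consecutive steps had the lowest fold changes of the sterol enzymes. Cyp51, the lanosterol demethylase, fell by 0.86 (SE 0.094) and Hsd17b7, a ketoreductase of sterol demethylation, by 0.81 (SE 0.091) on the log2 scale. Msmo1, the methylsterol monooxygenase, fell by 0.42 (SE 0.094), and it was the 1 late enzyme whose groups overlapped.

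The other 4 late enzymes were close to each other in fold change, from -0.49 to -0.30. Dhcr7, which completes cholesterol, had 39.9, 46.0 and 47.4 CPM in Control gRNA and 28.9, 31.5 and 37.8 CPM in Tardbp gRNA (log2 fold change -0.49, SE 0.058). Fdft1, the squalene synthase, had 52.6, 60.5 and 73.2 CPM in Control gRNA and 43.1, 46.3 and 51.2 CPM in Tardbp gRNA (log2 fold change -0.40, SE 0.068). Nsdhl, a sterol dehydrogenase, had 23.6, 28.2 and 31.5 CPM in Control gRNA and 18.4, 21.0 and 23.5 CPM in Tardbp gRNA (log2 fold change -0.40, SE 0.071). For Nsdhl the lowest Control library and the highest Tardbp library were only just apart, at 23.57 and 23.51 CPM. Sc5d, a sterol desaturase, had 78.1, 87.4 and 91.9 CPM in Control gRNA and 65.9, 70.2 and 75.9 CPM in Tardbp gRNA (log2 fold change -0.30, SE 0.046).

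The 3 enzymes that build palmitate from citrate were called lower. Fasn (chromosome 11, 120805846 to 120824547, minus strand), the fatty acid synthase, had 211.7, 261.3 and 318.1 CPM in Control gRNA and 63.7, 113.2 and 131.0 CPM in Tardbp gRNA, a log2 fold change of -1.32 (SE 0.127) that left 40.2% of the Control mean. Acly, the ATP citrate lyase, had the highest CPM of the 31 genes, with 420.1 ± 40.8 in Control gRNA and 253.8 ± 26.7 in Tardbp gRNA (SD, n = 8; log2 fold change -0.73, SE 0.069). Both genes were without overlap between groups. Acaca, the acetyl-CoA carboxylase, had 19.9 ± 2.23 and 11.7 ± 2.49 CPM (log2 fold change -0.76, SE 0.115), with overlap. The 3 elongases that lengthen the products lay nearer to the background. Elovl6 had 14.2 ± 1.99 CPM in Control gRNA and 10.9 ± 0.774 in Tardbp gRNA (log2 fold change -0.38, SE 0.087), Elovl5 144.5 ± 10.7 and 130.5 ± 5.55 (-0.15, SE 0.045) and Elovl1 147.6 ± 7.19 and 138.1 ± 8.08 (-0.10, SE 0.042). Elovl6 and Elovl5 were called lower and Elovl1 was not, and all 3 overlapped between groups.

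The desaturases, which put double bonds into fatty acids, had the lowest median log2 fold change by role, -1.72 over 5 genes. That median is the value of Scd1, which like Fads3 lay near the limit of what this depth resolves. Fads2 (ENSMUSG00000024665.8, chromosome 19, 10062765 to 10101746, minus strand), the first desaturase in the making of polyunsaturated fatty acids, had 10.1, 19.0 and 40.5 CPM in Control gRNA and 2.33, 3.85 and 5.62 CPM in Tardbp gRNA. The groups did not overlap, although Control libraries were widely spread, and the Tardbp mean was 17.3% of the Control mean (log2 fold change -2.54, SE 0.279). Fads1 (chromosome 19, 10182888 to 10196877), which acts further along the same route, had 32.3, 42.8 and 53.0 CPM in Control gRNA and 22.2, 23.3 and 28.9 CPM in Tardbp gRNA, without overlap (log2 fold change -0.81, SE 0.085). Fads3 (chromosome 19, 10041569 to 10060110), a relative of Fads1 and Fads2, was barely detected, with 11 to 47 counts per library in Control gRNA, against 0 to 25 in Tardbp gRNA, where 5 of 8 libraries had 0. It was not called (log2 fold change -1.98, SE 0.826).

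Of the stearoyl-CoA desaturases, which make oleate and palmitoleate, Scd2 was the abundant form. Scd2 (chromosome 19, 44293674 to 44306864) had 125.6, 162.0 and 197.1 CPM in Control gRNA and 56.9, 77.5 and 113.4 CPM in Tardbp gRNA (log2 fold change -1.03, SE 0.122). Its highest Tardbp library stayed below its lowest Control library. Scd1 (chromosome 19, 44394455 to 44407879) had 0.696, 1.20 and 2.11 CPM in Control gRNA and 0.031, 0.352 and 1.05 CPM in Tardbp gRNA (log2 fold change -1.72, SE 0.405). Its groups overlapped through the library numbered 2 of Tardbp gRNA, at 1.05 CPM. The genes share similar coding sequence, and reads could be split between copies.

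**Figure D2:**
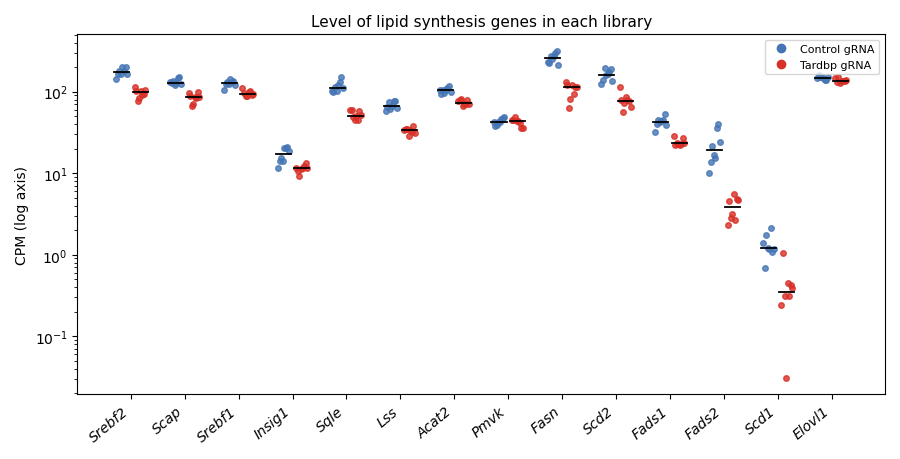
CPM on a log axis of 14 of the genes in each of the 16 libraries (points), with a black bar at the median of each group of 8. The clouds of Fads2, Fasn, Sqle and Lss do not overlap between groups, while those of Pmvk and Elovl1 do.

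Fads1, Fads2 and Fads3 lie next to each other on chromosome 19, and the neighbouring genes did not all move with them. Within 150 kb on either side of Fads2, 10 genes were tested. Of the other 7, Fen1, a nuclease of DNA replication that lies beside Fads1, was called lower (443.8 to 332.9 mean CPM, log2 fold change -0.41, SE 0.038). Fth1, the ferritin heavy chain, was called higher (625.3 to 800.5 CPM, 0.36, SE 0.055), as were Tmem258 (129.5 to 156.0 CPM, 0.27, SE 0.050) and Rab3il1, which lies just before Fads3 (0.313 to 0.949 CPM, 1.60, SE 0.349). Best1, Gm10143 and Dagla were not called.

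Levels of different genes were compared per length, as TPM values rebuilt from the transcript counts and annotated lengths, with the same total in every library. Fdps had the highest mean level in Control gRNA, 165.5 ± 33.7 TPM (SD, n = 8), followed by Acly at 158.5 ± 17.8 and Elovl1 at 149.0 ± 9.21. These 3 overlapped between libraries, and of the 30 pairs of neighbours in the order of the 31 genes 28 overlapped. The exceptions were Elovl1 above Elovl5 and Acaca above Scd1. In Tardbp gRNA Elovl1 came first, at 129.5 ± 10.8 TPM, with Acly at 91.9 ± 10.4 and Fdps at 84.8 ± 11.2 behind it. Fads2 went from place 24 to place 29, at 11.7 ± 5.76 and 1.92 ± 0.629 TPM.

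Summed over a role, the 16 sterol enzymes had 772.8 ± 102.8 TPM in Control gRNA and 469.4 ± 36.2 in Tardbp gRNA, which is 60.7% of the Control mean. The early part (7 enzymes) stood at 61.3% and the late part (9 enzymes) at 59.9%. The fatty acid synthesis enzymes stood at 54.0% (205.6 ± 23.4 to 111.1 ± 14.4), the desaturases at 44.7% (81.9 ± 16.1 to 36.6 ± 5.99), the 4 regulators at 62.7% and the elongases at 86.3% (242.7 ± 12.4 to 209.3 ± 12.8). In the desaturase sum most of the RNA was that of Scd2, at 48.4 ± 8.40 TPM in Control gRNA. TPM values were not scaled by TMM, so these percentages are not directly comparable with those by CPM. Elovl1 stood at 86.9% of the Control mean by TPM and at 93.6% by CPM, and Scd1 at 31.9% and 30.3%.

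**Figure D3:**
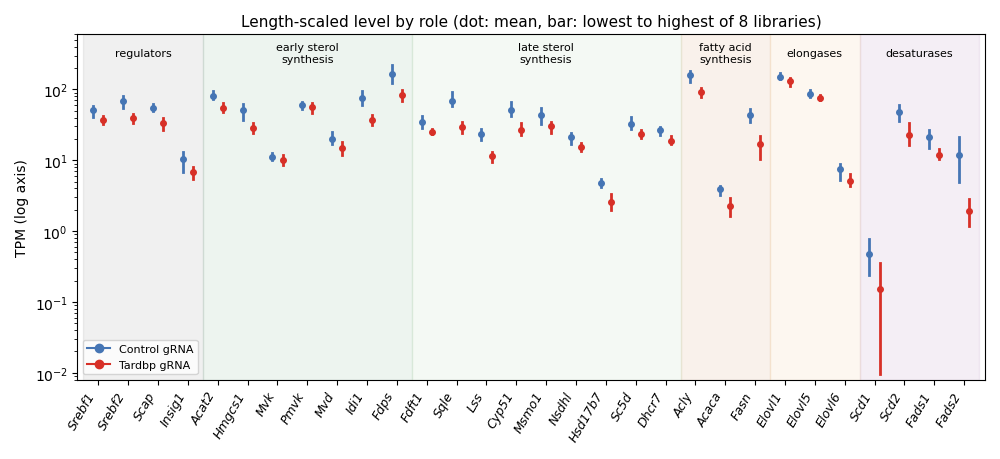
TPM on a log axis for 30 of the genes by role (dot, mean; bar, lowest to highest of 8 libraries), leaving out Fads3, which was at 0 in 5 Tardbp libraries. Blue Control bars sit above red Tardbp bars in most sterol genes and in Fads2, and side by side for Mvk and Pmvk.

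The other genes of these routes were examined as a list of 51, of which 46 passed the filter. Of these 20 were called lower, 6 higher and 20 not, with a median log2 fold change of -0.18 against 0.05 for all tested genes, and 46.7% of all tested genes were called in either direction. Mbtps2, a protease that releases the SREBP proteins, fell by 0.53 and Lbr, a sterol reductase of the nuclear envelope, by 0.52 on the log2 scale. Genes that activate, lengthen or use fatty acids included Acsl3, Hacd1, Gpam and Acsl1, which were all called lower. Their log2 fold changes were -1.86 (4.83 ± 1.76 and 1.33 ± 0.398 CPM), -1.01, -0.73 and -0.64. With the RNA concentration as a covariate Hacd1 (-1.02), Gpam (-0.81) and Acsl1 (-0.28) were not called.

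The genes called higher by more than 0.5 on the log2 scale were Mylip and Abcg1. Mylip, which encodes a ubiquitin ligase, had 5.90 ± 1.93 CPM in Control gRNA and 15.2 ± 1.49 in Tardbp gRNA (log2 fold change 1.36, SE 0.158). Abcg1, which exports cholesterol, had 9.31 ± 1.72 and 21.4 ± 2.74 CPM (1.20, SE 0.109). Both were without overlap between groups. Npc2, which moves cholesterol out of lysosomes, was also higher in every Tardbp library (80.4 ± 4.87 and 109.9 ± 7.95 CPM, 0.45, SE 0.051). The genes of the sterol-sensing LXR receptors, Nr1h3 (0.40, SE 0.169) and Nr1h2 (-0.03, SE 0.058), and the exporter Abca1 (1.65, SE 0.742) were not called.

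The genes varied together from library to library within groups, which the choice of the genes did not use. After the group means were subtracted, Pearson's r of log2 CPM over the 16 libraries was above 0 for 117 of 120 pairs of the 16 sterol enzymes, with a median of 0.51. It was above 0 for 406 of 465 pairs of all 31 genes, with a median of 0.41. The median for the sterol enzymes was 0.66 among the 8 Control libraries and 0.31 among the 8 Tardbp libraries. These values are descriptions, since the points share libraries, depth and scaling.

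Each gene was then set against the mean of the sterol enzymes other than itself. Fdps (r = 0.86), Cyp51 (0.85), Sqle (0.85) and Fdft1 (0.81) followed that mean most closely. For Fads2 r was 0.66, for Fads1 0.69, for Insig1 0.67, for Srebf2 0.66 and for Srebf1 0.62. Against the mean of all 16 enzymes the median r of all 16650 tested genes was 0.01, and 3.84% of them had an r over 0.5. The lowest values were 0.36 for Scd1, 0.28 for Mvk, 0.10 for Elovl5 and -0.27 for Elovl1. Fads2 followed the mean with r = 0.84 in Control libraries and 0.27 in Tardbp libraries, where its level was low, and Insig1 with 0.91 and -0.06. Other genes went the opposite way, such as Acaca with 0.03 and 0.80 and Elovl1 with -0.77 and 0.35. These differences between the groups were not tested.

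**Figure D4:**
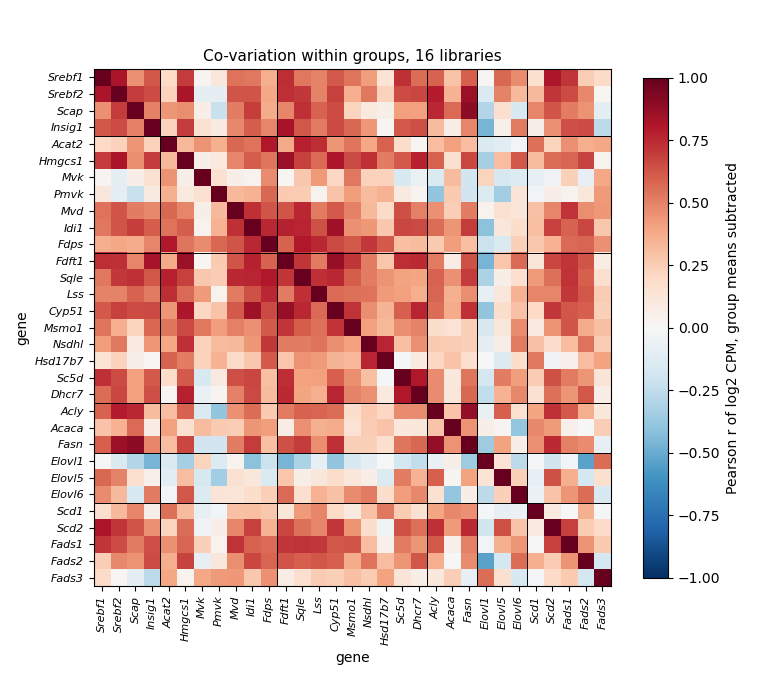
Pearson's r between each pair of the 31 genes over 16 libraries, from log2 CPM with group means subtracted, ordered and lined by role. Red (r above 0) fills most of the sterol blocks, and pale or blue rows mark Mvk, Pmvk and Elovl1.

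The level of the genes was set against the RNA concentration within each group. For Fads2, Fasn, Sqle, Scd2 and Lss, 10 relations of log2 CPM with log2 concentration were computed over 8 libraries each. Pearson's r ranged from -0.56 to 0.33 and Spearman's rho from -0.57 to 0.36. No relation passed the threshold, with a lowest p of 0.159 for r and 0.151 for rho by exact two-sided permutation tests (adjusted p 0.747 and 0.840). Without the 2 libraries farthest from the median concentration r ranged from -0.30 to 0.21. With the log2 concentration as a covariate 22 of the 31 genes were called lower, against 10.1% of all tested genes. The 5 that lost the call were Insig1 (log2 fold change -0.65), Fdft1 (-0.38), Msmo1 (-0.44), Mvd (-0.27) and Elovl5 (-0.19), and all kept a negative value. Among the libraries numbered 4 to 8 alone 28 were called lower (21.1% of all), and among those numbered 1 to 3 alone 15 (6.76% of all).

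A letter, M or F, is deposited for each library, with 5 F and 3 M in Control gRNA and 3 F and 5 M in Tardbp gRNA. It did not separate the libraries by RNA of sex-linked genes, since Xist ranged from 11.8 to 42.9 CPM with F and from 10.1 to 70.4 with M, and Ddx3y from 28.6 to 38.5 and from 18.6 to 35.8. No gene of the 31 was called for the letter by edgeR's quasi-likelihood test, with 1 at an unadjusted p under 0.05 and 1 called by DESeq2, which was Fads2. Fads2 had a mean of 27.1 CPM with F and 14.04 with M in Control gRNA, and 5.07 with F and 3.10 with M in Tardbp gRNA (log2 difference M minus F -0.84, SE 0.205, edgeR adjusted p 0.997). With the letter as a covariate the log2 fold change of Fads2 between the groups was -2.30. An interaction of group and letter was called for 0 of the 31 genes by edgeR and by DESeq2, and for 0 at an unadjusted p under 0.05 by edgeR. Over all 16650 genes 0 were called by edgeR for the letter or for the interaction.

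Reads of the genes were also divided between transcripts. In 22 of the 31 genes 70 transcript shares were tested, and none met both conditions of the call, an adjusted p under 0.05 by limma and a difference over 10 points, against 0.636% of all 32696 shares tested. The widest pattern by the first condition was in Srebf2. Srebf2-201, the coding transcript of 19 exons, held 83.7, 84.8 and 87.3% of the Srebf2 counts (lowest, median, highest) in Control gRNA and 73.2, 78.3 and 82.6% in Tardbp gRNA. Srebf2-205, a short transcript annotated with a retained intron, held 11.2, 13.5 and 15.5% and then 16.1, 19.3 and 24.9%. Neither overlapped between groups. In level, Srebf2-201 went from a mean of 149.0 to 75.3 CPM and Srebf2-205 from 23.4 to 19.0 CPM, so the share of the short transcript was higher while its level was not. For Srebf1 the main transcript Srebf1-201 held 91.2 ± 3.96% and 92.2 ± 2.23%.

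The authors' Psi, the fraction of transcripts that include a stretch of exon, was given once per group for 398 stretches of the 31 genes. It differed by more than 10 points in 15 stretches of 7 genes (3.77% of the stretches, against 4.70% of all 125520). Most of these were alternative starts or ends, such as a first exon of Dhcr7, at 12.4% in Control gRNA and 32.2% in Tardbp gRNA, and a last exon stretch of Elovl6, at 46.9% and 73.6%. Only 2 of 341 core exons were among them, in Acaca (93.8 and 82.7%) and Acly (62.0 and 51.4%). The 10 core exons of Fads2 had a Psi of 98.2 to 98.9% for Control gRNA, against 90.5 to 94.8% for Tardbp gRNA. Fads2 had a median of 1575 counts per Control library and 285 per Tardbp library. The part of this lower coverage in its Psi was not tested. Psi has no spread between libraries here.

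The Acly exon is shown because, of these 2, its inclusion and its skipping were nearer to equal. It is exon 14 of the 29 of Acly-203, 30 bases long, at chr11:100503160-100503189 on the minus strand of GRCm38, and lies in the coding sequence, with every base in capitals.
Acly exon: ATTCAGTCCCAAGTCCAAGATCCCTGCAAG
Inclusion was rebuilt in each library from the length-scaled counts of Acly-202 and Acly-203, which hold the exon, and Acly-201 and Acly-207, which skip it. It was 30.1, 50.5 and 58.9% (lowest, median, highest) in Control gRNA and 29.1, 39.6 and 54.3% in Tardbp gRNA. The groups overlapped. The lowest Control value was that of the library numbered 7, and the next lowest was 48.8%, below the highest Tardbp value. The Psi of Control gRNA, 62.0%, lay above every rebuilt Control value. The rebuilt spread therefore cannot stand for the spread of Psi, and whether the difference in Psi exceeds that spread was not tested. The Acly-203 share was not called.

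**Figure D5:**
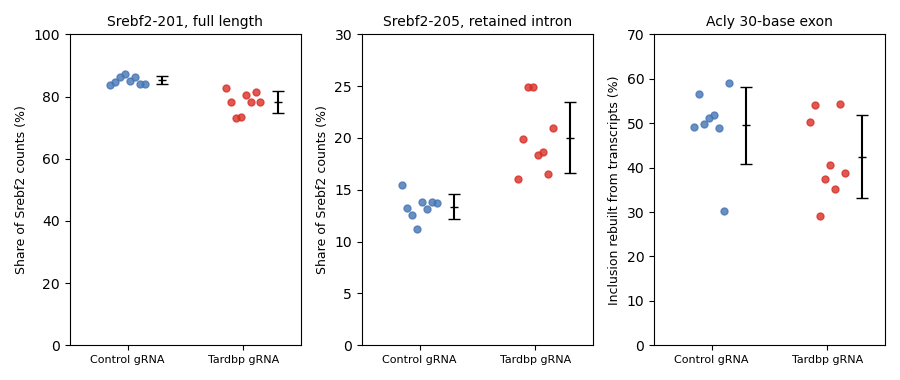
Share of Srebf2 counts in Srebf2-201 and Srebf2-205, and rebuilt inclusion of the 30-base Acly exon, in percent, in each library (points), with the mean and SD of 8 libraries beside them. The Srebf2 clouds are apart, at 85.2 and 78.2% for Srebf2-201, while the Acly clouds overlap.

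Several of the genes overlap another annotated gene in their exons, and for these the counts are less certain because the library kit keeps no strand. This was so for 11 of the 31. The overlapping genes with high levels were Cdc20, a mitotic regulator opposite Elovl1 (492.7 and 388.9 CPM, log2 fold change -0.34), and Ctsb, a lysosomal protease opposite Fdft1 (377.3 and 410.1 CPM, 0.12). Akap9 lies opposite Cyp51 (38.4 and 49.5 CPM, 0.36) and Rai1 opposite Srebf1 (10.9 and 9.58 CPM, -0.19). Fads2, Fasn, Sqle and Srebf2 overlap no other annotated exon.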

How the data were processed

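Poly(A) RNA of sorted CD8+ T cells was turned into 16 libraries (SMART-Seq v4, Nextera XT) and read as pairs of 100 bases. Per the labels, the authors aligned reads to mm10 with HISAT2 2.1.0 and made estimated counts per gene and transcript with StringTie 2.1.0, with no normalization; these deposited counts were whole numbers. The authors ran Whippet and deposited Psi as a fraction per group, with columns of differences and probabilities that were not used. The facility's deposited counts of read pairs (29714709 to 48164083) and the deposited RNA concentration, listed among the library values as a signal with no unit, describe the libraries. Each count table has 10 columns matching no sample here, which were not used, and 26345 lines naming no annotated gene (0.0836 to 0.132% of counts) were left out.

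The genes and lists were chosen with earlier results of these data known. Genes were tested with edgeR 4.0.16 in R 4.3.3 (quasi-likelihood, TMM, filterByExpr by group with a minimum count of 10, two-sided, called at an adjusted p under 0.05) on the 16 libraries without covariates. Transcript shares were tested with limma 3.58.1 in genes with at least 2 kept transcripts and a mean count over 50. Log2 CPM used a prior count of 2. Checks on simulated data recovered most of the changes put in for the group, letter and transcript share fits. No level of recovery was required of the interaction fit. The genes named with each library's range were the FADS, SCD and SREBP genes and the 5 lowest and 5 highest fold changes among called genes without overlap, and listed pathway genes were named where called with a log2 fold change over 0.5 in size, except a few that are not reported here. DESeq2 1.42.0, other normalization, no filter, covariates, subsets and left-out libraries were alternatives. Labels do not say that samples are separate animals, while the methods describe individual recipients; p-values measure the spread between these samples. Estimated counts include PCR copies, so depth bounds counting error only.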

Additional observations from a re-analysis of the deposited data

Results flagged for a closer look

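3 of the values by library stood far from the others of their group, by the ratio of the gap to the nearest library over the range of the group (Dixon's 95% value for 8 libraries). This was checked for 62 groups, the 31 genes in each of 2 groups, in which chance alone gives about 3.1. Dhcr7 had 37.8 CPM in the library numbered 5 of Tardbp gRNA, against 28.9 to 32.6 CPM in the other 7. Scd1 had 1.05 CPM in the library numbered 2 of Tardbp gRNA, against 0.031 to 0.450 CPM. Elovl6 had 9.76 CPM in the library numbered 1 of Control gRNA, against 13.0 to 15.6 CPM. None of the 3 genes lost its call when that library was left out.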

How the results depend on the processing

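The count of the 31 genes called lower was 27 and stayed between 26 and 28 with DESeq2, other scaling factors, no filter, the letter as a covariate, the libraries numbered 4 to 8 alone or an adjusted p under 0.01. It was 27 to 29 when each library was left out in turn, 22 with the RNA concentration as a covariate and 15 among the libraries numbered 1 to 3, which leave 3 per group. No gene was called higher in any of these. Of the other pathway genes 26 were called, 25 to 28 with a library left out, 16 with the RNA concentration and 12 among numbers 1 to 3. With a difference over 5 points (0.05) in place of 10, 2 transcript shares were called, Srebf2-201 and Srebf2-205, against 0; the count stayed at 0 with each library left out. For the letter, DESeq2 called 1 gene, against 0. The cause of these differences was not tested. Of the 31 genes only Pmvk turned in sign, to 0.17 among numbers 1 to 3. Fads3 was called without library 1 of Tardbp gRNA (log2 fold change -2.44) and without library 3 (-2.78), and Elovl1 in 10 of 16 fits with a library left out (-0.14 to -0.11).

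Libraries that share a number correlated at -0.0048 to 0.16 after group means were subtracted, and 2 of 8 numbers matched best with themselves. The main fit did not pair libraries by number, and whether the numbers mark a shared step cannot be told from these values. With the number as a replicate block 28 genes were called lower, with Fads3 at -3.25, and no transcript share. The levels of Fads3 and Scd1 lie near the limit of what this depth resolves.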
